A study of Mus musculus with 6 samples.

Results

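Solute carriers are membrane proteins that move ions, sugars, amino acids, metals and organic molecules across cell membranes. The genes described here are the rows of the deposited expression table whose symbol has the form Slc, a number, the letter a and a number, leaving out the mitochondrial Slc25a family. They came to 224 of the 13965 rows, in 45 families by number, and 222 of them were among the 13766 rows with at least 1 CPM (read count scaled to the library total) in at least 3 libraries, which were tested. Slc22a4 and Slc24a5 were below that minimum. The rule goes by name alone, so it takes in Slc9a3r1 and Slc9a3r2, which encode scaffold proteins, Slc4a1ap and Slc7a6os, which encode no carrier, and the pseudogene Slc2a4rg-ps. Families and members named with another letter, such as Slc35b or Slco, are outside it. In 7 rows the carrier was joined with an overlapping gene, and a value there cannot be assigned to either gene: these rows included Slc39a7, Slc35a3, Slc5a3, Slc16a6, Slc39a2 and Slc12a5.

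The study sequenced RNA of whole embryonic kidneys (mouse, embryonic day 16) as 6 libraries. The 3 control libraries are labelled WT, miR-17~92 flx/+, with 1 floxed copy of the microRNA cluster and no transgene named. The 3 mutant libraries are labelled Six2-TGC; miR-17~92 flx/flx, where Six2-TGC is a transgene that drives Cre recombinase in nephron progenitors, so both copies of the cluster can be removed there and in the cells that descend from them, while ureteric bud, stroma and vessels come from other cells. Controls and mutants were matched, with 1 library of each genotype from each of 3 litters. The labels do not say whether kidneys were pooled or came from separate animals, so p-values measure the spread between these libraries, and if the controls lack the transgene, its effect and that of the deletion cannot be told apart.

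In the kidney, the epithelium of the proximal tubule takes back sugars, amino acids, phosphate and organic ions from the filtrate, and carriers on its apical and basolateral sides work in series. The loop of Henle, distal tubule and collecting duct use cation-chloride cotransporters and anion exchangers to set salt and acid excretion. Other carriers serve every growing cell by bringing in glucose, amino acids, nucleosides and metals. Nephron progenitors give rise to the epithelium of the glomerulus, proximal tubule, loop and distal tubule, and microRNAs lower the level or translation of transcripts that pair with their seed, bases 2 to 8.

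Library totals were inferred from the spacing of the CPM values, as no read counts were used. They came to 43804667 to 54913325 reads, so that 1 CPM stood for about 43.8 to 54.9 reads. The row of the targeted locus joins the host transcript Mir17hg with the microRNA genes, 7 gene identifiers in all, and had 34.1, 36.4 and 23.0 CPM in the control and 53.6, 39.8 and 44.6 CPM in the mutant libraries of litters 1, 2 and 3. It was called higher in the libraries labelled mutant (log2 change 0.57, limma adjusted p 0.0292 paired by litter and 0.222 unpaired), which is not the direction of a loss. The row does not show from which part of the locus its reads come, so it does not check the deletion, and control and mutant stand throughout for libraries labelled so. Markers of nephron progenitors fell, 7 of 9 called lower (5 unpaired), from 532 to 581 summed CPM in control to 297 to 314 in mutant libraries. This list was chosen with earlier results of these data known, so its fall does not check the deletion either. Six2 and Eya1 were called lower paired by litter but not unpaired (limma adjusted p 0.354 and 0.227), and Crym and Osr1 were not called. Xist, the RNA of the inactive X chromosome, stood at 624 CPM in the control library of litter 1 and at 0.0809 to 0.255 CPM in the other 5. The Y-linked genes Ddx3y, Eif2s3y, Kdm5d and Uty had reads in all 6 libraries and were each lowest in that control library. Ddx3y stood there at 53.8 CPM, beside 82.7 to 125 CPM in the other 5, and Kdm5d at 39.6, beside 58.5 to 81.3 CPM. The labels give no sex, and the part of this difference in the results was not tested. Results without litter 1 are given where they change a call.

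The sequences of the 6 mature microRNAs of the cluster are shown because they set which transcripts can pair with it. They are from RefSeq (GRCm38.p6, chromosome 14, plus strand), 5′ to 3′, with the seed in capitals. The first of them lies at chr14:115043684-115043706 and the last at chr14:115044476-115044496. They fall into 4 seed groups: miR-17-5p with miR-20a-5p, miR-18a-5p, miR-19a-3p with miR-19b-3p, and miR-92a-3p.
miR-17-5p: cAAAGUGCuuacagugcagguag
miR-20a-5p: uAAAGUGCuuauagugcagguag
miR-18a-5p: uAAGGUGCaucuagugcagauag
miR-19a-3p: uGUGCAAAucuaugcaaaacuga
miR-19b-3p: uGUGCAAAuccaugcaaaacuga
miR-92a-3p: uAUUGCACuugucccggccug

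The letters that pair with these seeds were searched on the transcript strand of the longest annotated 3′ untranslated region (UTR) of each gene (GENCODE M21, GRCm38). The motifs were GCACTTT for miR-17 and miR-20a, GCACCTT for miR-18a, TTTGCAC for miR-19a and miR-19b, and GTGCAAT for miR-92a, and TTTGCAC can overlap GCACTTT by 4 letters. At least 1 motif was present in 81 of the 221 tested carriers with such a UTR, or 36.7%, and in 35.8% of all tested rows with one. Of the 21 carriers called higher in mutant kidneys, as described below, 10 held a motif, or 47.6%, beside 54.0% of all rows called higher. None of the 3 carriers called lower held one, beside 18.1% of all rows called lower. The share among the carriers was thus near that of other rows of the same call, and it is no result about carriers. The carriers with a motif had a median log2 change of 0.12 and a median UTR of 2396 bases, and those without 0.04 and 1064.5 bases. Over all rows tested these were 0.06 with 2397 bases and -0.01 with 959 bases, so that UTR length differed along with the motif. After correction for transcript length and GC content the carriers' medians were 0.06 with and 0.03 without a motif.

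Matches in 3 carriers called higher are shown as examples of UTRs with motifs of more than 1 copy or seed group. Each is printed 5′ to 3′ on the transcript strand with the motif in capitals. Slc12a7, on chromosome 13, held 5 motifs in a UTR of 1820 bases, of which the 2 printed here overlap and start at UTR bases 1156 and 1159. Slc40a1, on chromosome 1, held 3 in 1338 bases, of which the pair for miR-17 starts at bases 1087 and 1125. Slc24a3, on chromosome 2, held 3 in 1805 bases, and the first for miR-19 starts at base 1094. UTRs of this kind that are not printed included that of Slc6a8, with 2 motifs for miR-19. A match is a description of the sequence and shows no binding.
Slc12a7, miR-19 match: cctgacagatgaTTTGCACttta
Slc12a7, miR-17 match: gacagatgatttGCACTTTaccc
Slc40a1, miR-17 match: ttaacttttgatGCACTTTcatg
Slc40a1, miR-17 match: gcattgctgtgaGCACTTTcttt
Slc24a3, miR-19 match: gagaaagcacatTTTGCACagat

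Mutant kidneys had small rises in a minority of the carriers. In a limma fit paired by litter over all tested rows, 21 of 222 carriers were called higher in the mutant and 3 lower, at a Benjamini-Hochberg adjusted p under 0.05. The carriers called higher were 9.46% of those tested, beside 7.93% of all rows, those called lower 1.35%, beside 3.51%, and together 10.8%, beside 11.4%, so the share called in either direction was near the background. The largest rises were in Slc7a12, an amino acid carrier of the tubule, and Slc13a2, the apical carrier of citrate and other dicarboxylates, at folds of 1.89 and 1.88, and the largest fall was in Slc4a9, an anion exchanger of intercalated cells. No carrier changed by 1 or more on the scale of log2(CPM + 0.5) and 13 changed by at least 0.5. Folds are given on that scale, which understates those of low genes. The mean CPM of Slc7a12 went from 2.72 in control to 5.69 in mutant libraries, and that of Slc13a2 from 1.11 to 2.57. The median log2 change was 0.07, beside 0.01 over all rows, and 145 of 222 carriers were above 0. All mutant libraries stood above all control libraries for 36 carriers, or 16.2%, beside 10.2% of all rows, and below them for 10, or 4.5%, beside 7.12%. A rise in whole kidneys can come from more cells of a type or more RNA per cell, and these cannot be told apart here.

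**Figure D1:**
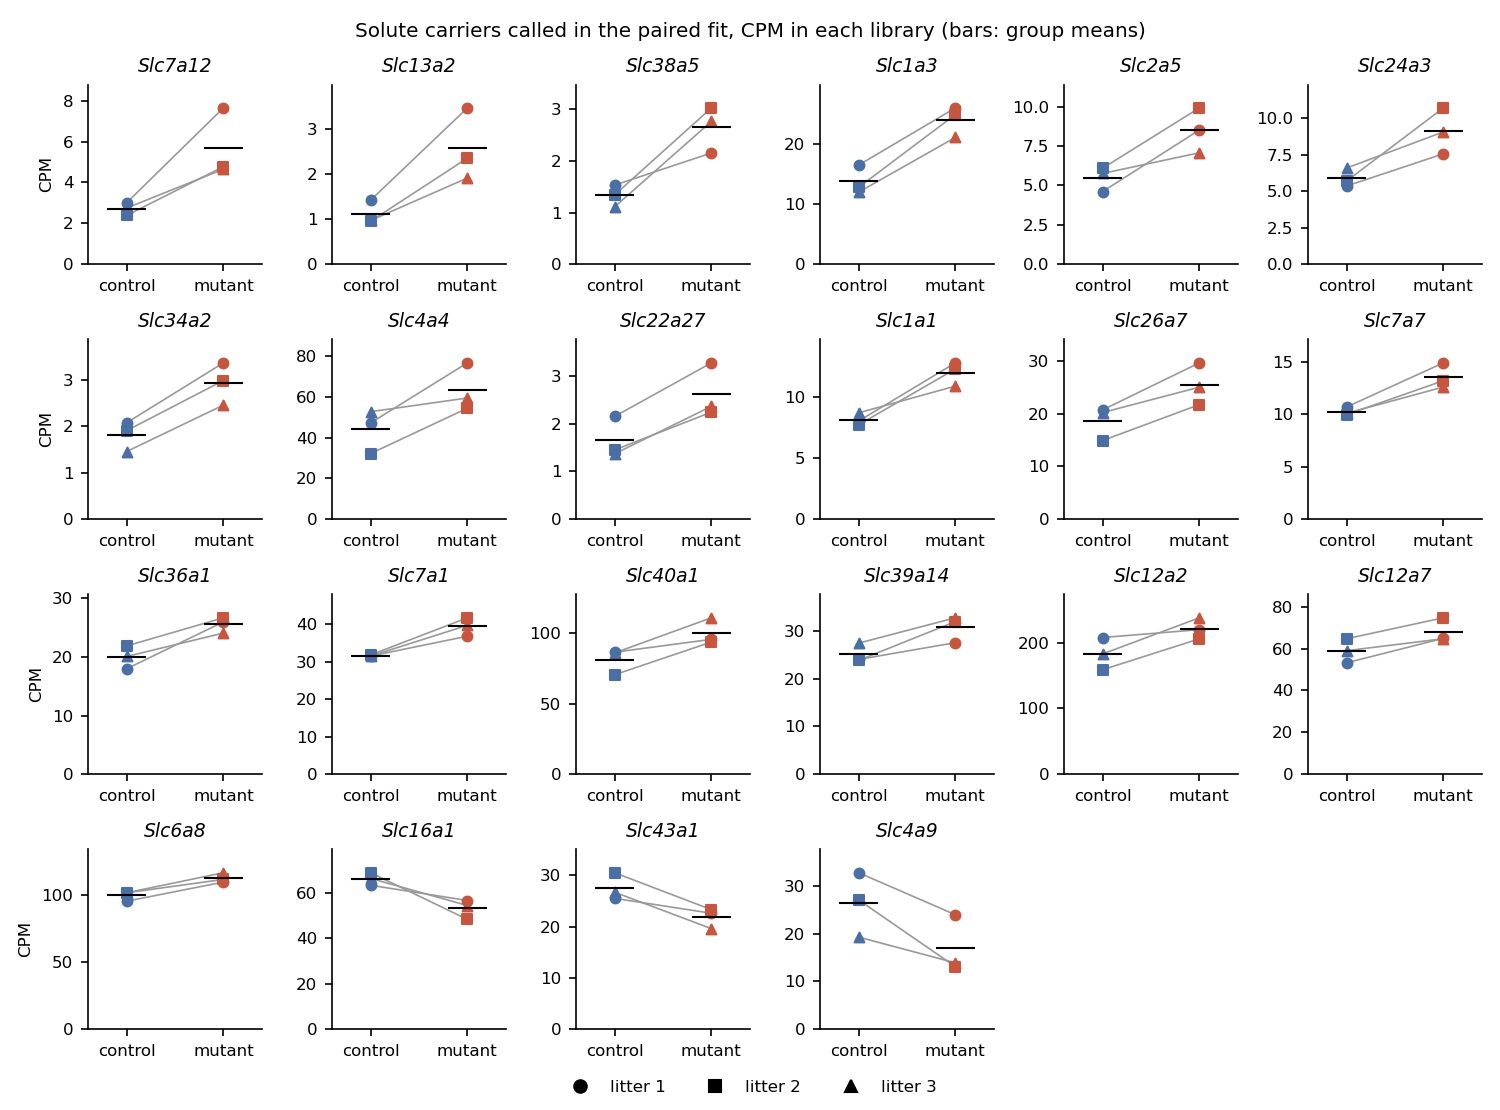
CPM (y axes, each from 0) of 22 of the 24 called carriers in each control (blue) and mutant (red) library, with litters as marker shapes, grey lines joining the libraries of a litter and black bars at the group means. All lines go up except those of Slc16a1, Slc43a1 and Slc4a9, which go down. Among the carriers plotted, the groups overlap for Slc12a2 and Slc4a9.

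All 24 called carriers moved the same way in 3 of 3 litters, and 21 had groups that did not overlap. A call in the paired fit favours genes with these traits, so neither count adds support to the calls. The share of all called rows with these traits was not counted. Without the pairing only Slc1a3 was called, and the adjusted p of the other 23 lay between 0.0744 and 0.496. In that unpaired fit 0.559% of all rows were called, 0.363% higher and 0.196% lower, and 32 carriers, or 14.4%, had an unadjusted p under 0.05, beside 11.3% of all rows. Without litter 1, 6 of the 24 were called: Slc1a3, Slc38a5, Slc40a1 and Slc12a2 among the risers, and Slc16a1 and Slc4a9 among those that fell. Slc22a2, an organic cation carrier named because of its values, was called lower in that fit alone (log2 change -0.59, limma adjusted p 0.0309, beside -0.40 and 0.0687 with all litters). Without litter 2, 16 of the 24 were called, and without litter 3, 22. Without the mean-variance trend of limma, 5 of the 24 were called, namely Slc7a12, Slc13a2, Slc1a3, Slc34a2 and Slc22a27. With trimmed-mean or median-ratio scaling 22 were, Slc12a7 and Slc6a8 being lost (limma adjusted p 0.057 to 0.0651). Without litter 3 the carriers called came to 42 higher and 6 lower, beside 10.8% and 5.91% of all rows, and without litter 1 to 4 and 3, beside 1.94% and 0.501%. At an unadjusted p under 0.05 in the paired fit, 53 carriers were higher and 11 lower, or 23.9% and 4.95%. Over all rows the shares were 17.9% and 11.4%, and counts at that limit for the lists below are to be read against these. Called counts of the lists, markers and families below are to be read against the 7.93% of all rows called higher and 3.51% called lower.

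Carriers differ widely in level, and levels are compared here as mean CPM per kilobase of the longest transcript. The row of Slc39a7, a zinc carrier of the endoplasmic reticulum, stood highest at 94.0 CPM per kilobase, but it also holds H2-Ke6. Slc12a1, the sodium-potassium-chloride cotransporter of the loop of Henle, followed at 51.2 CPM per kilobase. The next were Slc38a2, a carrier of small neutral amino acids, at 48.3, the scaffold gene Slc9a3r1 at 47.8 and Slc38a10 at 45.1 CPM per kilobase. Slc29a1, an equilibrative nucleoside carrier, stood at 39.7, Slc43a3, a purine nucleobase carrier, at 37.1, and Slc38a4 at 36.1 CPM per kilobase. None of these 8 was called, and their log2 changes lay between -0.10 for Slc9a3r1 and 0.14 for Slc38a2. The carriers with the largest rises were low, with 2.41 CPM per kilobase for Slc7a12 and 0.764 for Slc13a2.

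**Figure D2:**
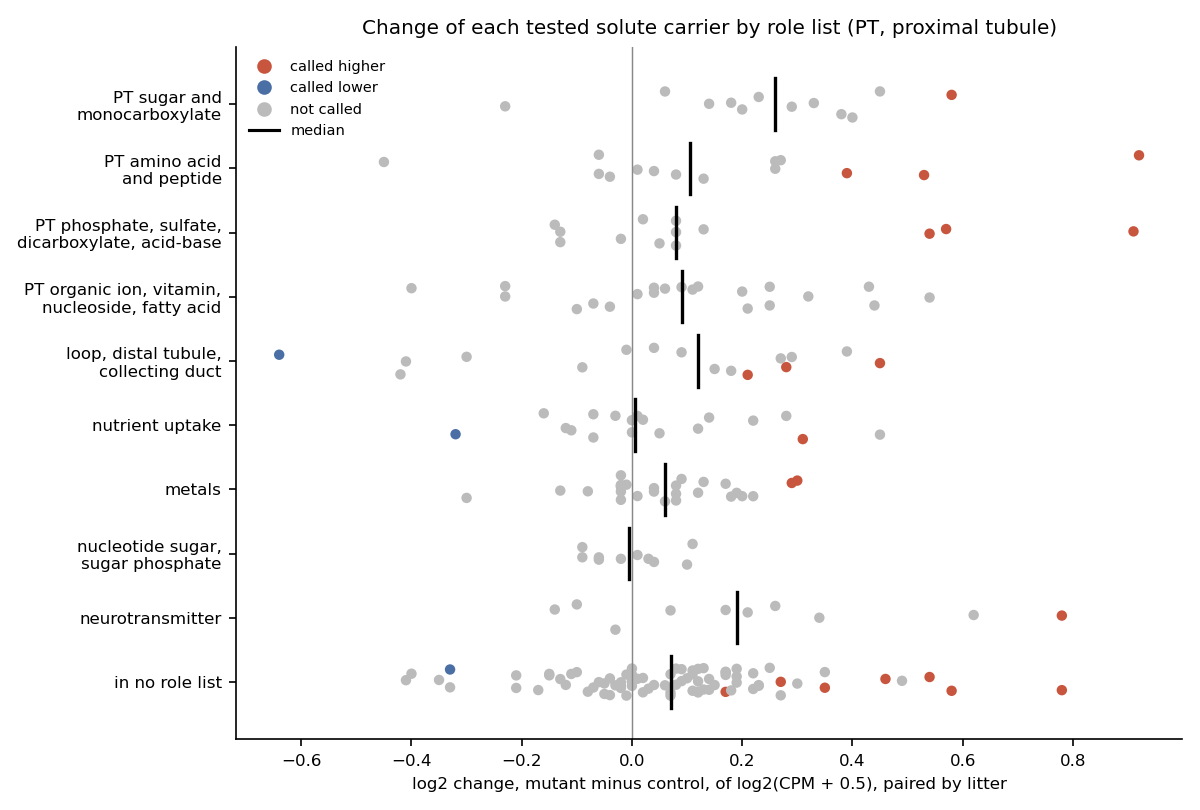
Log2 change of each tested carrier (x axis, mutant minus control, on the scale of log2(CPM + 0.5)) by role list, with carriers called higher in red, called lower in blue and not called in grey, and black bars at the list medians. The sugar list of the proximal tubule has the highest median, 0.26, and the nucleotide sugar list lies within 0.11 of 0.

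Sugar and monocarboxylate carriers of the proximal tubule had the highest median change of the role lists. Of 12 tested, 1 was called higher and none lower (5 and 0 at an unadjusted limma p under 0.05), 11 were above 0, and their median log2 change was 0.26. Slc2a5, the fructose carrier GLUT5, had 4.61, 6.09 and 5.76 CPM in the control libraries and 8.51, 9.91 and 7.07 CPM in the mutant libraries of litters 1, 2 and 3. Every mutant library was above every control library, and the paired log2 change was 0.58 (SE 0.13), with a limma adjusted p of 0.0251. Its adjusted p was 0.170 unpaired and 0.142 without litter 1. Slc5a1, the apical sodium-glucose cotransporter SGLT1, averaged 30.9 ± 4.19 CPM across control and 42.9 ± 10.1 CPM across mutant libraries (SD, n = 3). Its difference was 0.64 and 0.74 in litters 1 and 2 and -0.04 in litter 3, and it was not called (limma adjusted p 0.0669). Slc5a8, a sodium-coupled carrier of lactate and other monocarboxylates, had the same shape, with 0.68, 0.45 and -0.01 in the 3 litters (limma adjusted p 0.0710). Slc2a2, the basolateral glucose carrier GLUT2, and Slc16a12 had log2 changes of 0.06 and 0.14 and were not called.

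Among 14 tested amino acid and peptide carriers of the proximal tubule, 3 were called higher and none lower (5 and 1 at an unadjusted limma p under 0.05), with changes from -0.45 to 0.92 and a median of 0.11. Slc7a12 had 3.01, 2.39 and 2.75 CPM in the control and 7.64, 4.77 and 4.65 CPM in the mutant libraries. The mutant library of litter 1 was the highest, and the groups did not overlap. Its paired log2 change of 0.92 (SE 0.14), a fold of 1.89, had a limma adjusted p of 0.00799, and of 0.0744 unpaired and 0.0514 without litter 1. Slc1a1, which takes up glutamate and aspartate from the filtrate, had 8.04, 7.73 and 8.71 CPM in the control and 12.8, 12.3 and 10.9 CPM in the mutant libraries. These values did not overlap, with a log2 change of 0.53 (SE 0.10) and a limma adjusted p of 0.0182, and of 0.0998 unpaired and 0.110 without litter 1. Slc7a7, a basolateral carrier of cationic amino acids that is mutated in lysinuric protein intolerance, averaged 10.2 ± 0.386 CPM across control and 13.6 ± 1.22 CPM across mutant libraries (SD, n = 3). The 3 mutant values were 14.9, 13.2 and 12.6 CPM and the 3 control values 10.7, 9.97 and 10.1 CPM, again with no overlap. The log2 change was 0.39 with a limma adjusted p of 0.0273, and of 0.220 unpaired and 0.167 without litter 1. The more abundant members of the list were not called: Slc6a18, a neutral amino acid carrier, changed by 0.01, Slc15a2, the peptide carrier PEPT2, by 0.04, Slc6a13 by 0.08 and Slc7a8 by 0.13 on the log2 scale.

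The list of phosphate, sulfate, dicarboxylate and acid-base carriers had 3 of 13 called higher and none lower (3 and 0 at an unadjusted limma p under 0.05), with a median of 0.08. Slc13a2 had 1.42, 0.954 and 0.970 CPM in the control and 3.46, 2.35 and 1.91 CPM in the mutant libraries. It was higher in the mutant by 1.05, 0.97 and 0.71 in the 3 litters, and the groups did not overlap. The paired log2 change of 0.91 (SE 0.15), on a scale that understates the fold of low genes, had a limma adjusted p of 0.0103, and of 0.106 unpaired and 0.0740 without litter 1. Slc34a2, a sodium-phosphate cotransporter best known from gut and lung, had 2.08, 1.91 and 1.46 CPM in the control and 3.37, 2.99 and 2.46 CPM in the mutant libraries. Its log2 change was 0.57 (SE 0.13), with no overlap and a limma adjusted p of 0.0309, which became 0.227 unpaired, 0.152 without litter 1 and 0.0555 without litter 2. Slc4a4, the sodium-bicarbonate cotransporter of the basolateral membrane, had 47.2, 32.2 and 52.7 CPM in the control and 76.6, 54.4 and 59.4 CPM in the mutant libraries. The difference was 0.69 and 0.75 in litters 1 and 2 and 0.17 in litter 3, and the paired log2 change of 0.54 (SE 0.10) had a limma adjusted p of 0.0170, and of 0.282 unpaired and 0.0867 without litter 1. Slc34a1, the main phosphate carrier of the apical membrane, was not called: it averaged 116 ± 18 CPM across control and 117 ± 5.32 CPM across mutant libraries (SD, n = 3), a log2 change of 0.02. Slc20a1 and Slc20a2, phosphate carriers of most cells, changed by 0.05 and 0.08, Slc9a8, a sodium-hydrogen exchanger, by 0.08, and Slc13a1, the sulfate carrier, by -0.14, and none was called.

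None of the 21 tested carriers of organic ions, vitamins, nucleosides and fatty acids in the proximal tubule was called in either direction by the paired limma fit, in which 4 were higher and 1 lower at an unadjusted p under 0.05. Their changes ran from -0.40 to 0.54 with a median of 0.09. Slc47a1, which extrudes organic cations into the filtrate, was nearest to a call among those above 20 CPM, with means of 55.2 ± 6.45 CPM across control and 65.6 ± 5.91 CPM across mutant libraries (SD, n = 3, limma adjusted p 0.0645). Slc22a12, the urate carrier URAT1, changed by 0.21, Slc27a2, a fatty acid carrier and acyl-CoA synthetase, by 0.20, Slc23a1, a vitamin C carrier, by 0.11 and Slc22a5, the carnitine carrier, by 0.01. Slc22a6, the organic anion carrier OAT1, had log2 differences of 0.32 in litter 1, 0.09 in litter 2 and -0.54 in litter 3. Slc17a1, a phosphate and organic anion carrier, likewise had differences of 0.43, -0.08 and -0.57 in litters 1, 2 and 3.

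The 4 proximal tubule lists together differed in litter 3 from the other 2 litters. Over their 60 tested members the mutant library was above the control for 53 in litter 1, 48 in litter 2 and 23 in litter 3, with median log2 differences of 0.27, 0.23 and -0.06. Over the 162 other carriers these medians were 0.08, 0.08 and 0.03, and over all tested rows 0.00, 0.02 and 0.02. The 7 called members were higher in the mutant in every litter, which a call in the paired fit favours. Of 15 proximal tubule markers that are no solute carriers, 7 were called higher and none lower (4 higher with the length and GC correction described below, 1 unpaired), with median differences of 0.37, 0.31 and 0.01 in litters 1, 2 and 3, so they moved with the carriers. Their summed level was 1289 to 1475 CPM in control and 1481 to 1825 CPM in mutant libraries. Their part in the carriers' changes was not tested. Without litter 3, Slc5a1, Slc5a8, Slc47a1, Slc22a12, Slc27a2 and Slc6a13 were called higher as well, with adjusted p-values between 2.6e-05 and 0.0298 in the same limma fit.

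**Figure D3:**
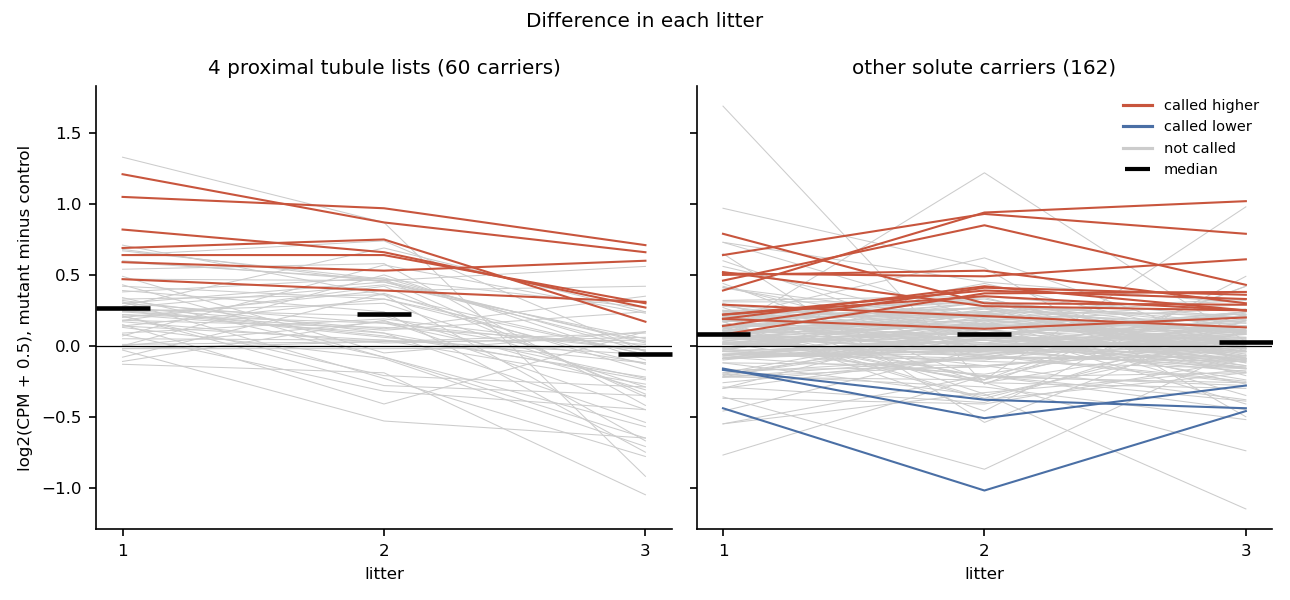
Log2 difference between the mutant and control library of each litter (y axis, log2(CPM + 0.5)) for 60 proximal tubule carriers (left) and 162 others (right). Each line is 1 carrier over the 3 litters, which have no order, with called carriers in colour and black bars at the medians, which are 0.27, 0.23 and -0.06 on the left and 0.08, 0.08 and 0.03 on the right.

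Carriers of the loop, distal tubule and collecting duct changed in both directions, with 3 of 16 called higher and 1 lower and a median of 0.12. Over all rows 7.93% were called higher and 3.51% lower. At an unadjusted limma p under 0.05, 4 of these carriers were higher and 2 lower. Slc26a7, an anion exchanger, had 20.7, 14.9 and 20.2 CPM in the control and 29.6, 21.7 and 25.0 CPM in the mutant libraries. The groups did not overlap, and the log2 change of 0.45 (SE 0.077) had a limma adjusted p of 0.0117, and of 0.295 unpaired and 0.0837 without litter 1. Slc12a2, the sodium-potassium-chloride cotransporter NKCC1, had 208, 159 and 183 CPM in the control and 220, 206 and 238 CPM in the mutant libraries. The control library of litter 1 was above the mutant library of litter 2, so the groups overlapped, and the paired log2 change was 0.28 (SE 0.061, limma adjusted p 0.0271, and 0.340 unpaired). Slc12a7, the potassium-chloride cotransporter KCC4, rose by 0.21 from 59.0 ± 5.76 to 68.1 ± 5.71 CPM (SD, n = 3), with 53.2, 64.7 and 59.0 CPM in the control and 64.9, 74.7 and 64.7 CPM in the mutant libraries. The highest control library and the lowest mutant library were equal at this rounding, and its limma adjusted p was 0.0435, 0.496 unpaired, and 0.280 and 0.0789 without litters 1 and 2. Slc4a9 had 32.8, 27.1 and 19.3 CPM in the control and 24, 13.1 and 13.9 CPM in the mutant libraries. The groups overlapped, but the mutant library was lower in each litter, with log2 differences of -0.44, -1.02 and -0.46. The paired log2 change of -0.64 (SE 0.12), a fold of 0.642, had a limma adjusted p of 0.0136, and of 0.328 unpaired.

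Slc12a1, the target of loop diuretics, did not pass the test: it averaged 237 ± 31.8 CPM across control and 248 ± 60.8 CPM across mutant libraries (SD, n = 3), a log2 change of 0.04 (limma adjusted p 0.0298 without litter 3, where its change was 0.16). Slc5a3, the inositol carrier in a row joined with Mrps6, changed by -0.01, Slc8a1, the sodium-calcium exchanger NCX1, by 0.27, and Slc14a2, a urea carrier of the collecting duct at under 2 CPM in both means, by 0.39. Loop and distal markers that are no solute carriers had 2 of 9 called higher, and 0 after the length and GC correction described below. Before it, 4 were higher and 0 lower at an unadjusted limma p under 0.05. Their summed level was 593 to 668 CPM in control and 715 to 772 CPM in mutant libraries. Wnk1 (means of 293 and 355 CPM) and Calb1 (270 and 310 CPM, not called) were the most abundant of them. Umod, Cldn16, Cldn19 and Kcnj1 changed by 0.01, -0.05, -0.02 and 0.11 on the log2 scale and were not called. Those of the ureteric bud and collecting duct had 3 of 10 called higher and 0 lower, and 2 higher after the correction, with 625 to 640 and 655 to 696 CPM. At an unadjusted limma p under 0.05, 5 were higher and 2 lower. Of the 10, 6 were above 0, while Aqp2, Aqp3, Wnt11 and the joined row of Hoxb7 were below it. Calb1 is in both marker lists and counts in both sums. The part of either in the carriers' changes was not tested.

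Carriers for nutrient uptake in growing cells were centred near 0, with a median of 0.01 over 18 tested, 1 called higher and 1 lower. At an unadjusted limma p under 0.05, 4 were higher and 1 lower. Slc7a1, the arginine and lysine carrier CAT1, had 31.5, 31.8 and 31.5 CPM in the control and 36.8, 41.7 and 39.7 CPM in the mutant libraries. The 3 control values were nearly equal and all mutant values were above them. The log2 change of 0.31 (SE 0.063) had a limma adjusted p of 0.0201, and of 0.223 unpaired and 0.0727 without litter 1. Slc16a1, the lactate and pyruvate carrier MCT1, went the other way, with 63.2, 68.7 and 66.2 CPM in the control and 56.5, 48.2 and 54.3 CPM in the mutant libraries. Every mutant library was below every control library, and the log2 change of -0.32 (SE 0.071) had a limma adjusted p of 0.0275, 0.220 unpaired and 0.0594 without litter 2. The glucose carrier Slc2a1 (GLUT1) averaged 65 ± 5.38 CPM across control and 70.9 ± 10.4 CPM across mutant libraries (SD, n = 3), and the glutamine carrier Slc1a5 at 87.6 ± 10.9 and 77.8 ± 5.10 CPM, and neither was called, although Slc1a5 passed as lower without litter 2 (log2 change -0.31, limma adjusted p 0.00427). Slc3a2, the heavy chain shared by several amino acid carriers, changed by -0.07 and its partner Slc7a5 (LAT1) by -0.12. The remaining abundant members were also not called, with 0.14 for Slc38a2, 0.05 for Slc38a1, 0.02 for Slc7a6, 0.01 for Slc43a3, -0.03 for Slc29a1 and values that round to 0.00 in size for the folate carriers Slc19a1 and Slc46a1.

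Of 27 tested metal carriers 2 were called higher and none lower (7 and 0 at an unadjusted limma p under 0.05), with a median of 0.06. Slc40a1, ferroportin, which exports iron, had 86.6, 70.6 and 86.1 CPM in the control and 95.7, 93.8 and 111 CPM in the mutant libraries. The groups did not overlap, and the log2 change of 0.30 (SE 0.060) had a limma adjusted p of 0.0188, and of 0.314 unpaired. Slc39a14, the zinc and iron carrier ZIP14, averaged 25.1 ± 2.04 CPM across control and 30.7 ± 2.76 CPM across mutant libraries (SD, n = 3). Its highest control value was 27.4 CPM and its lowest mutant value 27.5 CPM, and its log2 change of 0.29 had a limma adjusted p of 0.0390, 0.352 unpaired, 0.110 without litter 1 and 0.142 without litter 2. The most abundant members of families Slc30, Slc11, Slc31, Slc39 and Slc41 were not called: Slc30a9 and Slc11a2 both changed by -0.02, Slc31a1 by -0.01, the joined row of Slc39a7 by -0.02 and Slc41a1 by 0.08. Macrophage and erythroid markers, of cells that also handle iron, had none called of 7 and 8 tested in the paired limma fit, with 3 and 1 higher and none lower at an unadjusted p under 0.05.

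The 10 nucleotide sugar and sugar phosphate carriers, which supply the Golgi and endoplasmic reticulum, had the narrowest range of changes among the role lists. None was called in either direction by limma, with 0 at an unadjusted p under 0.05 as well, and their changes ran from -0.09 to 0.11 around a median that rounds to 0.00 in size. Slc37a3 changed by 0.10, Slc33a1, the acetyl-CoA carrier, by -0.06, and the joined row of Slc35a3 and Mfsd14a by 0.01.

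Among carriers best known from neurons and glia, 10 of 25 had rows, and 1 was called higher and 0 lower (2 and 0 at an unadjusted limma p under 0.05). Slc1a3, the glutamate carrier GLAST, was the one carrier called with and without the pairing. It had 16.5, 12.8 and 12 CPM in the control and 26, 24.9 and 21.1 CPM in the mutant libraries, so the lowest mutant library stood well above the highest control library. The log2 change of 0.78 (SE 0.084), a fold of 1.72, had a limma adjusted p of 0.00215, and of 0.0434 unpaired. It was called in all 12 alternatives, with adjusted p-values up to 0.0434. Slc18a1, a vesicular carrier of monoamines, had differences of 0.97, 0.55 and -0.50 in litters 1, 2 and 3 and was not called (limma adjusted p 0.360). Only 3 of 9 neural and Schwann cell markers had rows, at 17.4 to 25.6 summed CPM, and 1 of 8 adrenal markers. Of the 3 neural and Schwann cell markers, 1 was called lower, with and without the pairing, and 0 higher. Stromal markers, with 3 of 8 called higher, stood at 2712 to 3008 summed CPM in control and 3200 to 3757 CPM in mutant libraries. The most abundant of them, Col3a1 (means of 1640 and 1930 CPM) and Col1a1 (741 and 888 CPM), were not called (limma adjusted p 0.0928 and 0.0518). Endothelial markers, with 3 of 6, stood at 706 to 748 and 814 to 832 CPM. After the length and GC correction described below, 2 stromal and 3 endothelial markers were called higher. Their part in the change of Slc1a3 was not tested.

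Of the 82 tested carriers in none of these lists, 7 were called higher and 1 lower, with a median of 0.07. At an unadjusted limma p under 0.05, 19 were higher and 6 lower. Slc38a5, a glutamine carrier, had 1.53, 1.34 and 1.11 CPM in the control and 2.15, 3.02 and 2.76 CPM in the mutant libraries. The groups did not overlap, and the log2 change of 0.78 (SE 0.17) had a limma adjusted p of 0.0252, and of 0.0948 unpaired. Slc24a3, a potassium-dependent sodium-calcium exchanger, had 5.36, 5.70 and 6.59 CPM in the control and 7.56, 10.7 and 9.06 CPM in the mutant libraries. The mutant library of litter 2 was the highest of 6, and the log2 change of 0.58 (SE 0.12) had a limma adjusted p of 0.0201, 0.149 unpaired and 0.0604 without litter 1. Slc22a27, of the organic anion carriers found in rodents, had 2.15, 1.45 and 1.37 CPM in the control and 3.27, 2.24 and 2.36 CPM in the mutant libraries. Its groups did not overlap, and its log2 change of 0.54 had a limma adjusted p of 0.0417, 0.322 unpaired and 0.179, 0.0747 and 0.0724 without litters 1, 2 and 3. It has close relatives side by side in the genome, so reads may be split among them.

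Slc36a1, a proton-coupled amino acid carrier of lysosomes, averaged 20 ± 1.97 CPM across control and 25.6 ± 1.35 CPM across mutant libraries (SD, n = 3, log2 change 0.35, limma adjusted p 0.0293, and 0.193 without litter 1). Slc6a8, the creatine carrier, had the smallest rise that was called, 0.17, from 100 ± 3.80 to 113 ± 4.11 CPM (SD, n = 3), with a limma adjusted p of 0.0447 that exceeded 0.05 when any 1 litter was left out. Slc43a1, a carrier of large neutral amino acids, had 25.5, 30.5 and 26.7 CPM in the control and 22.6, 23.3 and 19.6 CPM in the mutant libraries. Its groups did not overlap, and its log2 change of -0.33 had a limma adjusted p of 0.0326, 0.299 unpaired, and 0.0643 and 0.0562 without litters 1 and 2. Just outside the threshold was Slc6a6, the taurine carrier, with a log2 change of 0.17 and a limma adjusted p of 0.0525, which was 0.0489 among rows of at least 5 CPM.

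By family number, calls were spread over 18 of the 45 families. Slc7, the cationic and heteromeric amino acid carriers, had 3 of 13 called higher, Slc1 had 2 of 4, and Slc12 had 2 of 9. Slc4 and Slc16 each had 1 called higher and 1 lower, of 10 and 12 tested. Over all rows 7.93% were called higher and 3.51% lower. Slc22, the largest family with 19 tested, had 1 called higher and a median change of 0.12. The most abundant members of other families, none of them called, included Slc44a2, a choline carrier, with a log2 change of 0.12, Slc4a2, an anion exchanger, with -0.01, Slc22a17 with -0.15, Slc27a4 with 0.07, Slc36a4 with 0.17, Slc23a2 with 0.18, Slc45a4 with 0.12, Slc48a1, a heme carrier, with 0.09, Slc10a7 with 0.07, Slc50a1 with 0.02 and Slc52a2, a riboflavin carrier, with 0.04.

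Longer transcripts had higher changes across all rows (Spearman rho 0.41 over 13517 genes, which are not independent replicates), and less so among the carriers (0.179 over 222). The median transcript was 3753 bases for the tested carriers, 4152 for those called higher and 3432 over all rows. With the trend on length and GC content removed from each library, 12 carriers were called higher and 3 lower, or 15 in all, beside 3.78%, 3.16% and 6.94% of all rows, and the carriers' median change was 0.03. The 15 were all among the 24. Those no longer called included Slc4a4 (0.41, limma adjusted p 0.0585), Slc34a2 (0.52, 0.0520), Slc36a1 (0.27, 0.0835), Slc7a1 (0.19, 0.0905), Slc39a14 (0.20, 0.104), Slc12a2 (0.18, 0.0786), Slc12a7 (0.09, 0.359) and Slc6a8 (0.14, 0.0975). The rises of Slc7a12, Slc13a2, Slc38a5 and Slc1a3 were 0.74 to 0.97 after correction.

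**Figure D4:**
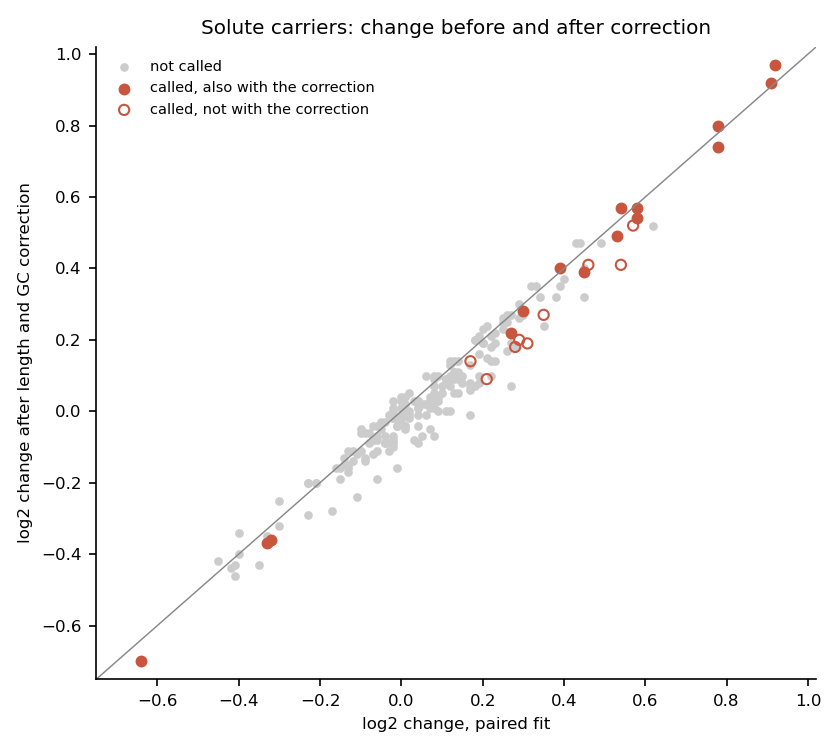
Log2 change of each tested carrier in the paired fit (x axis) and after removal of each library's trend on transcript length and GC content (y axis), with the diagonal where both are equal. Filled red points are the 15 carriers called both ways, open red points the 9 called only before the correction, which lie below the diagonal.

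The same fit held other genes of transport. Of 23 partners and regulators of carriers 4 were called higher and none lower, beside 7.93% and 3.51% of all rows. Among the 4 were Wnk1, a kinase that controls cation-chloride cotransporters, Nedd4l, a ubiquitin ligase, and Hnf4a, a transcription factor of the tubule. After the length and GC correction 1 of the 4 was called, and Wnk1, Nedd4l and Hnf4a were not (limma adjusted p 0.13, 0.385 and 0.0804). Of 12 subunits and modulators of the sodium pump, which makes the gradient many carriers use, Fxyd4 was called higher and Fxyd6 lower. Of 45 Slco and ABC transporters 5 were called higher and none lower, beside 7.93% and 3.51% of all rows, and their median change was 0.07. After the correction 2 were called, Slco1a4 and Abca1, while Abca3, Abca5 and Abca8b were not, and the median was -0.01.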

How the data were processed

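The authors deposited 1 table of CPM values, read counts scaled to each library's total. TopHat2 2.0.9, Picard, SAMtools and the build NCBIM37 are named per the submitters' processing notes. The counting program, annotation and strand setting are not given in the sources used here, so overlapping and antisense genes may share reads. Symbols came from a table of Ensembl names for 13695 of 13965 rows, and lengths from GENCODE M21. Rows that reached 1 CPM in 3 or more of 6 libraries were fitted with limma 3.58.1 in R 4.3.3, with trend, on log2(CPM + 0.5) with genotype and litter, and p-values were adjusted over all 13766 rows. The fit was tested on simulated data. Litters come from the labels, and deviations correlated at 0.619, 0.446 and 0.312 within litters and at -0.514 to 0.172 between them. No library repeated another (chi-square per degree of freedom 21.6 to 51.1).

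Carriers were named if among the 15 largest called rises or falls with a mean of at least 1 CPM, called unpaired, among the 8 highest per kilobase, at 20 CPM or more in a tubule or nutrient list, or the highest of a family. Slc39a14, Slc6a8 and Slc22a2 were added after their values were seen. A few genes are counted but not reported by name here. Role lists hold only genes the naming rule takes. The members and lists were chosen with earlier results of these data known.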

Additional observations from a re-analysis of the deposited data

How the results depend on the processing

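The count of carriers called depended on the fit. Beside 21 called higher and 3 lower in the fit paired by litter, there were 1 and 0 without the replicate block, 6 and 0 without the trend, 12 higher with the length and GC correction, and 4 to 42 higher and 3 to 6 lower with 1 litter left out (4 and 3 without litter 1, 42 and 6 without litter 3). With other pseudocounts, filters or scalings these counts were 17 to 21 and 3. The median change of 0.07 became 0.03 to 0.11 over all of these. The cause of these shifts was not tested, except that leaving out a litter also leaves fewer libraries. No carrier called in the paired fit changed sign. The changes of other named carriers, all within 0.13 of 0 in the paired fit, changed sign in some fits. With median-ratio scaling these were Slc22a5 -0.00, Slc35a3 -0.00, Slc38a10 -0.01, Slc43a3 -0.00, Slc46a1 -0.02, Slc50a1 -0.00, Slc6a18 -0.00. With trimmed-mean scaling these were Slc22a5 -0.00, Slc35a3 -0.00, Slc38a10 -0.01, Slc43a3 -0.01, Slc46a1 -0.02, Slc50a1 -0.00, Slc6a18 -0.00. With the length and GC correction these were Slc12a1 -0.01, Slc22a5 -0.00, Slc2a2 -0.01, Slc34a1 -0.02, Slc35a3 -0.05, Slc38a1 -0.07, Slc38a10 -0.04, Slc39a7 0.00, Slc45a4 -0.00, Slc52a2 -0.04, Slc6a18 -0.04, Slc7a6 -0.01. With 1 litter left out they were Slc11a2 -0.07 to 0.04, Slc12a1 -0.05 to 0.16, Slc15a2 -0.01 to 0.09, Slc17a1 -0.32 to 0.17, Slc19a1 -0.06 to 0.08, Slc22a6 -0.22 to 0.21, Slc27a4 -0.02 to 0.11, Slc29a1 -0.07 to 0.06, Slc2a2 -0.05 to 0.24, Slc31a1 -0.04 to 0.02, Slc34a1 -0.07 to 0.15, Slc35a3 -0.03 to 0.06, Slc38a10 -0.03 to 0.07, Slc43a3 -0.01 to 0.05, Slc46a1 -0.04 to 0.05, Slc4a2 -0.03 to 0.04, Slc50a1 -0.02 to 0.05, Slc5a3 -0.03 to 0.02, Slc6a13 -0.03 to 0.27, Slc6a18 -0.06 to 0.08, Slc7a6 -0.01 to 0.05, Slc7a8 -0.05 to 0.25. The 2 planned count tests were not run, because a check on the reads recovered from the CPM values did not accept them. By the inferred totals 1 CPM stands for at least 43.8 reads, and the 3 litters limit the precision of every comparison.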
